A study of Homo sapiens with 18 samples.

Results

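Transcripts of 9 genes that carry the innate response to nucleic acids were followed in 18 RNA libraries from irradiated and non-irradiated human cell cultures. The 9 genes were taken by symbol, though the choice was made with earlier results of these data known. They were the sensors CGAS, IFIH1 and TLR3, the adaptors STING1 and MAVS, the interferon regulatory factors IRF1, IRF7 and IRF9, and STAT2. All 9 were found under these symbols among the 40916 symbols of each count table, and all 9 had counts in at least 1 library. The libraries formed 6 groups of 3 biological replicates. MCF10A, a non-transformed mammary epithelial line that here expressed a histone H2B-GFP fusion, HCT116, an unlabelled colorectal carcinoma line described as p53-null, and mixed cultures of both lines each received either no irradiation (NIR) or 10 Gy (IR). RNA was taken at day 2 by the sample titles and at 72 h by the series description, and which holds could not be settled. The MCF10A medium was an F12 and DMEM mixture with horse serum, EGF, hydrocortisone, cholera toxin and insulin, the HCT116 medium was McCoy's 5A with fetal bovine serum, and that of the mixtures is not given in the sources used here. Line and medium therefore cannot be told apart in comparisons between the monocultures. Nor can co-culture be told apart from medium in comparisons of mixed cultures with a monoculture, since the medium of the mixtures is not known.

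Cells detect misplaced or foreign nucleic acids with dedicated receptors. CGAS binds double-stranded DNA in the cytosol and makes a cyclic dinucleotide that activates STING1, IFIH1 (also called MDA5) binds long double-stranded RNA in the cytosol and signals through MAVS on mitochondria, and TLR3 binds double-stranded RNA in endosomes. These routes activate interferon regulatory factors, among them IRF7, and so lead to transcription of interferon genes. Secreted type I and type III interferons act on receptors whose Janus kinases activate STAT proteins, and STAT2 and IRF9 are parts of the complex ISGF3, which binds interferon-stimulated response elements. Ionizing radiation is known to release DNA into the cytosol of some cells, for example through micronuclei, and several of these genes are themselves interferon-inducible.

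Library totals ranged from 25737818 to 40839835 counts. Levels below are counts scaled to a library total of 1e+06 (CPM), as mean ± SD over 3 libraries unless single libraries are given in the order of replicates 1, 2 and 3. Of 10 mammary basal markers, 9 were lower and 1 was higher in NIR HCT116 than in NIR MCF10A. KRT5 averaged 2883 CPM in NIR MCF10A and 0.117 CPM in NIR HCT116, ITGB4 was high in both (650.5 and 477 CPM), and the 1 higher in HCT116 was CDH3 (147 and 196 CPM). Of 11 intestinal markers, the defining factor CDX2 was at 10.0 CPM in NIR HCT116 and had no count in NIR MCF10A, while CDX1 had none in either. The summed level of 8 blood cell markers lay between 2.25 and 6.86 CPM in all 18 libraries. CDKN1A, a p53 target, stood at 275 to 352 CPM in NIR HCT116 and at 1508 to 1688 CPM in IR HCT116, and MDM2, another, at 260 to 275 and 655 to 747 CPM. These values go against the description p53-null, so the line is called HCT116 alone below. Mitochondrially encoded genes took 5.10 to 5.32% of counts in NIR MCF10A and 6.06 to 6.35% in IR MCF10A, and 8.42 to 8.75% and 11.5 to 12.3% in NIR and IR HCT116. Their part in the results was not tested on its own. A fit without them and the 10 most abundant other genes is named below where it changed a call. Genes specific to either line put the MCF10A part of the RNA at 0.447% ± 0.0528 in NIR mixed libraries and at 1.24% ± 0.0662 in IR ones, although equal parts of both lines were described. In HCT116 alone the MCF10A-specific genes stood at a median of 0.088% (NIR) and 0.138% (IR) of their MCF10A level. That background was not subtracted, so the shares may be somewhat too high. Mixed libraries were thus almost entirely HCT116 RNA, and fewer cells of a line and less RNA per cell cannot be told apart in them.

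On the GRCh38.p14 assembly the members lie on 8 chromosomes. CGAS occupies chr6:73423711-73452297 on the minus strand, STING1 chr5:139475533-139482758 minus, IFIH1 chr2:162267074-162318684 minus, and MAVS chr20:3846834-3876118 plus. TLR3 lies at chr4:186069156-186088073 plus, IRF1 at chr5:132481609-132490773 minus, IRF7 at chr11:612555-615950 minus, IRF9 at chr14:24161265-24166565 plus, and STAT2 at chr12:56341597-56360107 minus. Counts are over the exons of a whole gene, so they do not separate isoforms or UTRs. In GENCODE release 29, 93.5% of the merged exon bases of IRF9 also belong to AL136295.5, a gene on the same strand, so reads of the pair may be hard to assign. IRF1 shares 15.3% of its exon bases with the opposite-strand gene C5orf56, and CGAS 4.88% with the opposite-strand gene DDX43. Neither AL136295.5 nor C5orf56 is a symbol of the count tables. The annotation used for counting is not given, so how shared reads were counted is not known. IRF9 values are uncertain for that reason. The labels name a stranded kit, but the strand setting of the counting is not given in the sources used here.

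RefSeq promoter sequences were present for 6 of the 9 members. They are shown for the 4 in which a response-element motif was found, because the interferon loop described above runs through such elements. The 250 bases before the annotated start are printed 5′ to 3′ on the strand of the gene (GRCh38.p14), with matches in capitals. The search covered both strands for GAAANNGAAA, a core of the interferon-stimulated response element (ISRE) bound by IRFs and ISGF3, and for TTCNNNGAA, the gamma-activated site (GAS) bound by STAT dimers, which is its own reverse complement. The regions are chr2:162318685-162318934 for IFIH1, chr4:186068906-186069155 for TLR3, chr5:132490774-132491023 for IRF1 and chr14:24161015-24161264 for IRF9.
IFIH1: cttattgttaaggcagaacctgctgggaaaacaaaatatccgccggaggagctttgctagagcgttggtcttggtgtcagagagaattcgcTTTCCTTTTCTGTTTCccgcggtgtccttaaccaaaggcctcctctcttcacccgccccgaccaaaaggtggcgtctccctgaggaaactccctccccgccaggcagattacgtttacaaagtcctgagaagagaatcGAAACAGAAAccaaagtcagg
TLR3: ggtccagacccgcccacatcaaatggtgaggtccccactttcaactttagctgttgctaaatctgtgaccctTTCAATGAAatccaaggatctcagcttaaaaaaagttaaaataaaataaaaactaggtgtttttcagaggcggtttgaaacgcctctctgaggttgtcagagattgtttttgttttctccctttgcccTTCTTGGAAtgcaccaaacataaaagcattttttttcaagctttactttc
IRF1: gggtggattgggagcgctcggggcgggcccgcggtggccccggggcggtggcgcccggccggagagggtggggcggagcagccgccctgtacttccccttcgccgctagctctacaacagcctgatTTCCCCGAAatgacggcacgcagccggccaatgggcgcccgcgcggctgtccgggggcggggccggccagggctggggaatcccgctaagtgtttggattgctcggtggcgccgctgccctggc
IRF9: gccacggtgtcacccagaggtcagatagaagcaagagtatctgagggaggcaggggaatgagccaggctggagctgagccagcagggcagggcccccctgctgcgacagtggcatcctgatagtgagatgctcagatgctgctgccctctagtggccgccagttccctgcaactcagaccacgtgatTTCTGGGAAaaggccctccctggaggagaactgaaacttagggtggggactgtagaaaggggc

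IFIH1 held 3 ISRE-core matches, of which 1 on the gene's strand began 21 bases before the start and 2 on the other strand overlapped each other between 159 and 144 bases before it. TLR3 held 2 GAS matches, which began 178 and 50 bases before the start, IRF1 held 1 that began 124 bases before it, and IRF9 held 1 that began 63 bases before it. Among 35116 RefSeq promoters of the same 250 bases, 3.02% held the ISRE core and 6.57% held the GAS letters. The promoters of MAVS and STAT2 held neither, and CGAS, STING1 and IRF7 had no entry. A match describes the letters in this window and says nothing of binding in these cells.

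The members differed most between the lines at CGAS, the cytosolic DNA sensor. CGAS stood at 27.2, 29.6 and 28.96 CPM in NIR MCF10A and at 26.9, 26.7 and 28.7 CPM in IR MCF10A. In NIR HCT116 the libraries held 0, 6 and 0 counts, and in IR HCT116 4, 0 and 2, against 848 to 1052 counts in the 3 NIR MCF10A libraries. The 2 lines did not overlap, and both HCT116 groups were close to 0. Summed counts put NIR MCF10A 450-fold above NIR HCT116 (449.8, exact 95% interval 206 to 1227, counting error only) and IR MCF10A 456-fold above IR HCT116 (209 to 1244). If each read pair was counted as 2 mates, the lower bounds become 153.5 and 156. The log2 difference between lines was -8.92 ± 0.303 (SE) without irradiation (adjusted p = 1.4e-14, edgeR). Without NIR HCT116 replicate 2, the library holding the 6 counts, it was -12.93, a value that depends on the prior count. The mixed libraries held 0, 6 and 0 counts (NIR) and 6, 8 and 6 counts (IR) of CGAS, too few for a test within mixed cultures. Irradiation left the MCF10A level of CGAS within the spread of its libraries (log2 difference -0.08 ± 0.0798, adjusted p = 0.41).

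**Figure D1:**
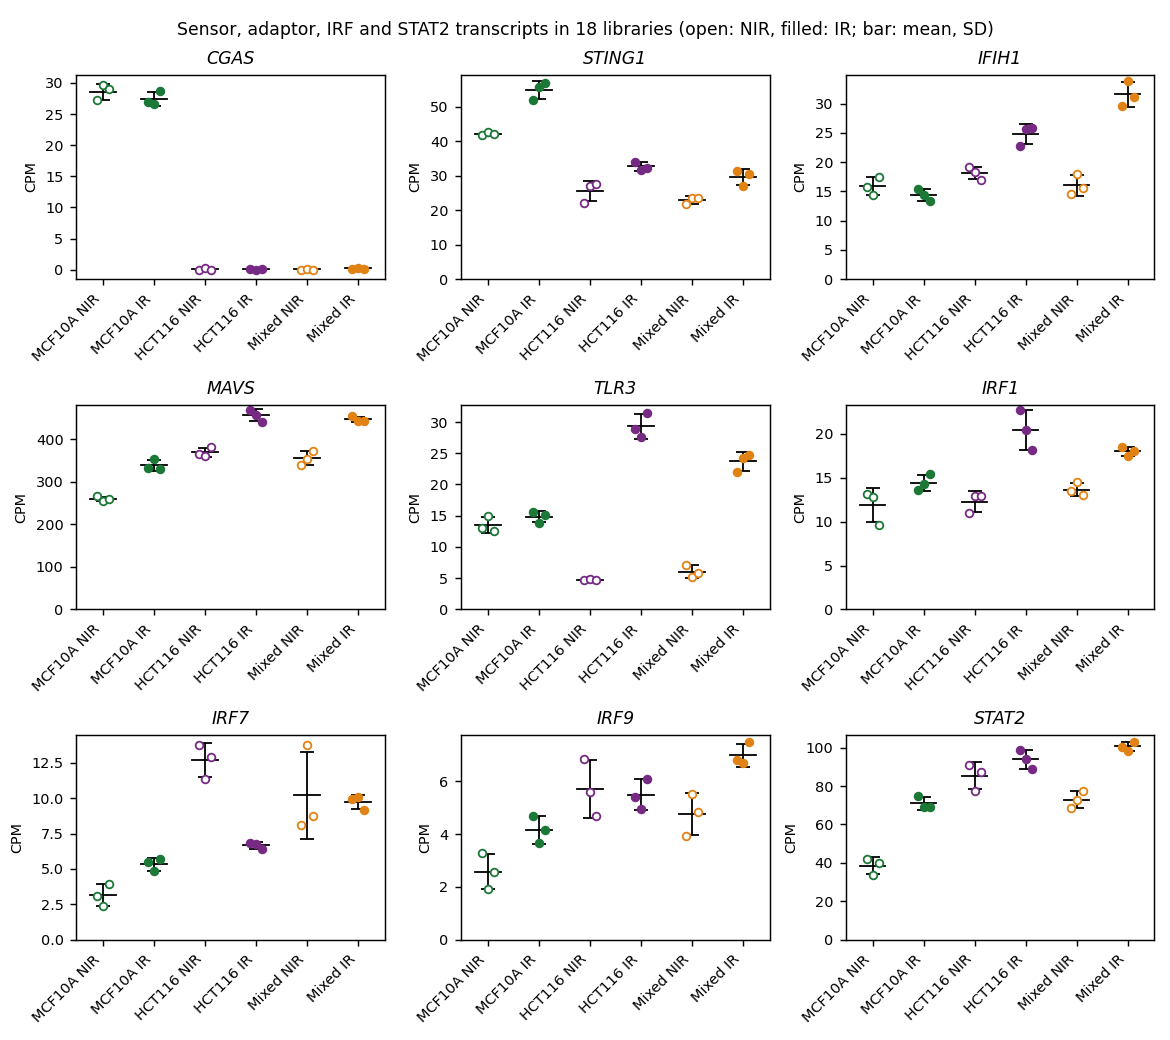
Levels of the 9 transcripts in CPM (linear axes from 0) in each of 18 libraries, by group; open points are NIR and filled points IR libraries, bars give the mean and SD of 3. CGAS is near 0 outside MCF10A, TLR3 in HCT116 goes from 4.78 to 29.3 CPM after irradiation, and IRF7 in HCT116 goes from 12.7 to 6.66 CPM.

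TLR3, the endosomal sensor of double-stranded RNA, was the member with the largest irradiation response. In HCT116 it measured 4.63, 4.94 and 4.78 CPM without irradiation and 28.9, 27.6 and 31.4 CPM after it. Every irradiated HCT116 library was above every non-irradiated one, a 6.15-fold rise (log2 2.62 ± 0.114 SE, adjusted p = 9.9e-15). In MCF10A the libraries overlapped, at 13.0, 14.9 and 12.6 CPM (NIR) and 15.6, 13.8 and 15.2 CPM (IR), with a log2 difference of 0.11 and an adjusted p of 0.39. TLR3 was thus lower in HCT116 than in MCF10A before irradiation (log2 -1.70, adjusted p = 5.2e-09) and higher after it (log2 0.75, adjusted p = 1.2e-07). The difference between both responses was 2.43 ± 0.156 on the log2 scale (adjusted p = 7e-12). In mixed cultures TLR3 rose from 7.16, 5.22 and 5.78 CPM to 22.02, 24.3 and 24.7 CPM (log2 1.95, adjusted p = 2.1e-11).

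IFIH1, the cytosolic double-stranded RNA sensor, rose in HCT116 and mixed cultures. The HCT116 libraries held 19.1, 18.3 and 17.0 CPM without irradiation and 22.8, 25.6 and 25.9 CPM after it, with no overlap (log2 0.45 ± 0.0977, adjusted p = 0.00042). The mixed libraries went from 14.6, 18.0 and 15.5 CPM to 29.6, 34.0 and 31.2 CPM, again without overlap (log2 0.95, adjusted p = 5e-08). In MCF10A the values of 15.8, 14.4 and 17.4 CPM (NIR) and 15.4, 14.4 and 13.3 CPM (IR) overlapped (log2 -0.17, adjusted p = 0.19). The HCT116 response exceeded that of MCF10A by 0.54 ± 0.144 on the log2 scale (adjusted p = 0.0037). Without irradiation the lines lay together, at 15.9 ± 1.499 CPM in MCF10A and 18.2 ± 1.08 CPM in HCT116 (adjusted p = 0.98), and the sign of that difference changed with the scaling.

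Both adaptors rose in each of the 3 cultures. MAVS, which passes the signal of IFIH1 on, rose from 260 ± 5.23 to 338 ± 12.2 CPM in MCF10A (log2 0.36, adjusted p = 2.5e-08), from 369 ± 11.3 to 456 ± 14.2 CPM in HCT116 (log2 0.31, adjusted p = 5.1e-05), and from 355 ± 17.0 to 446 ± 6.53 CPM in mixed cultures (log2 0.30, adjusted p = 7.4e-05). STING1, which acts below CGAS, rose from 42.2 ± 0.414 to 55.0 ± 2.62 CPM in MCF10A (log2 0.36, adjusted p = 2.4e-05), from 25.6 ± 2.99 to 32.7 ± 1.24 CPM in HCT116 (log2 0.36, adjusted p = 0.0027), and from 23.0 ± 1.13 to 29.7 ± 2.26 CPM in mixed cultures (log2 0.34, adjusted p = 0.0027). No libraries of the irradiated and non-irradiated groups overlapped for either gene in any culture. The responses of the lines differed by -0.12 ± 0.0682 for MAVS (adjusted p = 0.17) and by -0.08 ± 0.115 for STING1 (adjusted p = 0.67), neither past the threshold. STING1 was lower in HCT116 than in MCF10A both before (log2 -0.92, adjusted p = 4.8e-08) and after irradiation (log2 -0.98, adjusted p = 2.9e-12), and MAVS was higher (log2 0.31 and 0.20, adjusted p = 2.6e-05 and 0.00046). With library totals alone those MAVS differences were 0.51 and 0.43.

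IRF7, an interferon-inducible activator of interferon genes, moved in opposite directions in the 2 lines. HCT116 libraries fell from 13.8, 11.4 and 12.9 CPM to 6.86, 6.76 and 6.37 CPM (log2 -0.92 ± 0.134, adjusted p = 3.9e-06). MCF10A libraries rose from 3.12, 2.37 and 3.96 CPM to 5.51, 4.82 and 5.67 CPM (log2 0.75 ± 0.202, adjusted p = 0.0024). Neither pair of groups overlapped, and the responses differed by -1.75 ± 0.239 on the log2 scale (adjusted p = 2e-06). The lines were apart without irradiation (log2 1.82 higher in HCT116, adjusted p = 6.3e-08), whereas after it the difference was 0.09 with an adjusted p of 0.62. The IR libraries of the lines still did not overlap, with HCT116 higher. That IR difference depended on the processing and ranged from 0.0151 to 0.32 over 14 alternatives, with 0 past the threshold. In mixed cultures IRF7 stood at 8.12, 13.8 and 8.73 CPM (NIR) and 9.95, 10.1 and 9.19 CPM (IR). There the groups overlapped because of NIR replicate 2, and the log2 difference of -0.10 (adjusted p = 0.65) became 0.18 (adjusted p = 0.33) without that library.

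IRF1, an interferon-gamma responsive activator, rose in HCT116 from 10.9, 13.0 and 13.0 CPM to 22.7, 20.4 and 18.2 CPM (log2 0.75, adjusted p = 9.6e-06). It rose in mixed cultures from 13.7 ± 0.757 to 18.0 ± 0.529 CPM (log2 0.37, adjusted p = 0.0039). In MCF10A it measured 13.2, 12.8 and 9.63 CPM without irradiation and 13.6, 14.3 and 15.4 CPM after it. Those MCF10A groups did not overlap, yet the log2 difference of 0.26 ± 0.120 missed the threshold (adjusted p = 0.071) and passed it without NIR replicate 1 or NIR replicate 2 (adjusted p = 0.038 each), with upper-quartile factors (0.018) and with library totals (0.049). HCT116 and MCF10A responses of IRF1 differed by 0.41 ± 0.179 (adjusted p = 0.076), past the threshold in 9 of 20 alternatives, 5 of which each left out 1 library: NIR MCF10A replicate 3 (adjusted p = 0.017), IR MCF10A replicate 2 (0.046) or 3 (0.029), or IR HCT116 replicate 2 (0.043) or 3 (0.044). The other 4, with adjusted p from 0.017 to 0.044, were library totals, no filter, a table without mitochondrial and the most abundant genes, and 1 fit of all 18 libraries.

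STAT2 and IRF9, which both belong to ISGF3, rose in MCF10A and in mixed cultures, and neither passed the test in HCT116. STAT2 in MCF10A went from 42.1, 33.5 and 39.7 CPM to 74.9, 69.1 and 69.1 CPM (log2 0.87 ± 0.0702, adjusted p = 2.3e-11), and in mixed cultures from 68.6, 72.7 and 77.5 CPM to 101, 98.2 and 103 CPM (log2 0.44, adjusted p = 7.4e-06). In HCT116 the STAT2 libraries of 91.0, 77.5 and 87.5 CPM (NIR) and 98.5, 94.3 and 88.9 CPM (IR) overlapped (log2 0.15, adjusted p = 0.082). That difference passed the threshold without NIR HCT116 replicate 1 (0.19, adjusted p = 0.046) and with counts halved (0.16, adjusted p = 0.046). The STAT2 response was smaller in HCT116 than in MCF10A by 0.80 ± 0.106 on the log2 scale (log2 -0.80, adjusted p = 1.4e-06).

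IRF9 was counted at a low level throughout, with the uncertainty from its overlap with AL136295.5 given above. It went from 3.26, 1.92 and 2.56 CPM to 4.70, 3.65 and 4.15 CPM in MCF10A, from 6.86, 5.59 and 4.67 CPM to 5.42, 4.95 and 6.10 CPM in HCT116, and from 3.94, 5.51 and 4.84 CPM to 6.80, 6.68 and 7.48 CPM in mixed cultures. MCF10A and mixed libraries separated by treatment, and HCT116 libraries overlapped. The log2 differences were 0.67 ± 0.225 in MCF10A (adjusted p = 0.013), -0.06 ± 0.178 in HCT116 (adjusted p = 0.81) and 0.52 in mixed cultures (adjusted p = 0.012). The MCF10A call was lost without NIR replicate 2 (0.50) or IR replicate 1 (0.58), each with adjusted p = 0.069, and the mixed call without NIR replicate 1 (0.39, adjusted p = 0.064) or IR replicate 3 (0.47, adjusted p = 0.052). HCT116 and MCF10A responses of IRF9 differed by -0.80 ± 0.294 (adjusted p = 0.033), a call held in 10 of 20 alternatives. It was lost with no filter (-0.70, adjusted p = 0.077) and in a table without mitochondrial and the most abundant genes (-0.70, 0.062). Of single libraries, it was lost without NIR MCF10A replicate 2 (-0.63, adjusted p = 0.10) or 3 (-0.80, 0.052), without IR MCF10A replicate 1 (-0.61, 0.14), 2 (-0.78, 0.054) or 3 (-0.70, 0.094), and without NIR HCT116 replicate 1 (-0.66, 0.11) or IR HCT116 replicate 1 (-0.80, 0.055) or 2 (-0.63, 0.13).

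**Figure D2:**
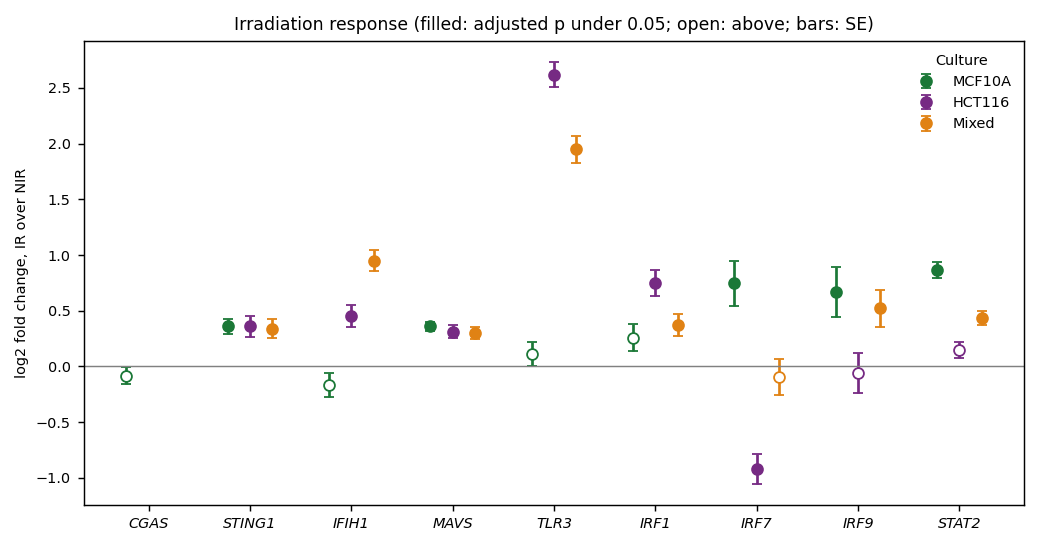
Irradiation response of each transcript as log2 fold change (IR over NIR, vertical axis) in MCF10A, HCT116 and mixed cultures, with SE bars; filled points have an adjusted p under 0.05. CGAS was tested in MCF10A only. STING1 and MAVS lie between 0.30 and 0.36 in all 3 cultures, TLR3 reaches 2.62 in HCT116, and IRF7 is at -0.92 in HCT116 and 0.75 in MCF10A.

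These counts need the background of the whole table, since irradiation changed a large share of all genes. In MCF10A 5 of 9 members rose and 0 fell, where 55.4% of 15154 genes changed, 26.2% upward and 29.2% downward. In HCT116 5 of 8 tested members rose and 1 fell, against 52.5% of genes, 25.3% upward and 27.2% downward. In mixed cultures 7 of 8 tested members rose and 0 fell, against 49.4%, with 24.0% upward and 25.4% downward. The median log2 difference of the tested members was 0.36, 0.34 and 0.41 in MCF10A, HCT116 and mixed cultures, where the medians of all tested genes were 0.0035, 0.0072 and 0.012. The share of members changed in either direction was thus near the background in MCF10A. Upper-quartile factors moved the upward part of the changed genes in MCF10A from 47.4% to 57.5%.

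Between the lines, 4 members were higher and 3 lower in NIR HCT116 than in NIR MCF10A, where 74.8% of genes differed, 38.7% upward and 36.1% downward. IRF9 (log2 0.95 ± 0.235, adjusted p = 0.0014) and STAT2 (log2 0.95 ± 0.0838, adjusted p = 1e-08) were on the higher side with MAVS and IRF7, and CGAS, STING1 and TLR3 on the lower. After irradiation 5 members were higher and 2 lower in HCT116, against 74.9% of genes, 38.1% upward and 36.8% downward. Of the differing genes 51.8% were higher in HCT116 without irradiation, and 62.4% and 62.2% with upper-quartile factors and library totals. After irradiation these shares were 50.9%, 60.2% and 62.4%. IFIH1 (log2 0.56, adjusted p = 2.2e-05), TLR3, MAVS, IRF1 (0.27, adjusted p = 0.028) and STAT2 (0.18, adjusted p = 0.0099) were then higher, and CGAS and STING1 lower. With library totals alone the IRF1 difference was 0.50 and that of STAT2 0.405, each over 1.5 times the value given. The IRF1 call was lost without IR MCF10A replicate 1 (0.21, adjusted p = 0.13) or 2 (0.26, 0.073) and without IR HCT116 replicate 1 (0.19, 0.16) or 2 (0.27, 0.055). That of STAT2 was lost without IR MCF10A replicate 2 (0.15, adjusted p = 0.062) or 3 (0.15, 0.063) or IR HCT116 replicate 1 (0.13, 0.051). For the difference between responses, 2 members were past the threshold toward HCT116 (IFIH1, TLR3) and 3 toward MCF10A (IRF7, IRF9, STAT2). The background there was 37.3% of genes, 15.4% toward HCT116 and 21.9% toward MCF10A. The median of all genes was -0.10 there, and the part of changed genes toward HCT116 was 41.3%. That part was 51.9% with no filter, 52.5% without mitochondrial and the most abundant genes, and 51.8% with all 18 libraries in 1 fit. The median was -0.0058 and -0.01 in the last 2.

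Levels were scaled by merged exon length for a rough comparison of different genes. The place of IRF9 is uncertain, since 93.5% of its exon bases are shared with AL136295.5. STING1 (23.8 CPM per kb) and MAVS (22.1) led in NIR MCF10A, followed by STAT2 (11.3), CGAS (7.75), IFIH1 (3.77), IRF1 (3.13), TLR3 (2.17), IRF7 (1.47) and IRF9 (1.31). In NIR HCT116 MAVS (31.3 CPM per kb) and STAT2 (25.2) led STING1 (14.5), then IRF7 (5.92), IFIH1 (4.31), IRF1 (3.24), IRF9 (2.90), TLR3 (0.768) and CGAS (0.0169). Across the 6 groups, the CPM order of STAT2 ran from NIR MCF10A at 38.4 CPM to IR mixed cultures at 101 CPM, and only the lowest group was free of overlap with its neighbour. IFIH1 separated only at the upper end, where IR HCT116 (24.8 CPM) and IR mixed cultures (31.6 CPM) each stood clear of the group below. TLR3 separated at every step but the one from NIR to IR MCF10A. For IRF9 the only clear step was between NIR and IR MCF10A.

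Mixed cultures were compared with HCT116 monocultures, whose RNA made up most of theirs. Co-culture and medium cannot be told apart here or in the comparisons of mixed cultures below. Without irradiation 0 of 8 tested members differed by edgeR, where 2.04% of genes did, 0.887% upward and 1.15% downward. DESeq2 also called 0, and at an unadjusted p under 0.05 edgeR had 1, STAT2 (log2 -0.21, adjusted p = 0.18). After irradiation 2 members were higher in mixed cultures and 1 lower, against 8.56% of genes, 5.08% upward and 3.48% downward. IRF7 was higher at 9.74 ± 0.478 against 6.66 ± 0.255 CPM (log2 0.54 ± 0.132, adjusted p = 0.0085). IFIH1 was higher at 31.6 ± 2.19 against 24.8 ± 1.69 CPM (log2 0.34 ± 0.0864, adjusted p = 0.010), a call lost without IR HCT116 replicate 1 (0.29, adjusted p = 0.055) or IR mixed replicate 2 (0.29, 0.11). TLR3 was lower at 23.7 ± 1.46 against 29.3 ± 1.95 CPM (log2 -0.31 ± 0.0872, adjusted p = 0.020), a call lost without IR HCT116 replicate 3 (-0.27, adjusted p = 0.11) or IR mixed replicate 1 (-0.27, 0.087) or 2 (-0.33, 0.058), and in 1 fit of all 18 libraries (-0.28, 0.098). All 3 genes were free of overlap between these groups. So were STING1 (log2 -0.15, adjusted p = 0.31) and IRF9 (log2 0.34, adjusted p = 0.18), which missed the threshold. Without irradiation TLR3 and IRF1 were also free of overlap between mixed and HCT116 cultures, and neither was called. The share of all genes without overlap was not computed, so these separations are not read as a result.

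The change with irradiation differed between mixed and HCT116 cultures for 0 members upward and 1 downward, where 0.830% of genes differed, 0.681% upward and 0.149% downward. Upward genes were 82.0% of those, or 61.5% with DESeq2. The 1 was TLR3 at -0.66 ± 0.163 on the log2 scale (adjusted p = 0.049), and it stayed past the threshold in 6 of 20 alternatives. It was lost with any single library left out (adjusted p from 0.058 to 0.15) except NIR mixed replicate 2 or 3. IRF7 (0.83 ± 0.219, adjusted p = 0.070) and IFIH1 (0.51 ± 0.136, adjusted p = 0.078) missed the threshold, and without NIR mixed replicate 2, the library high in IRF7, both passed it (1.09, adjusted p = 0.0027, and 0.58, adjusted p = 0.039). STAT2 (0.30, adjusted p = 0.15) and IRF9 (0.59, adjusted p = 0.28) did not pass.

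Mixed levels were also set against the sum of both monocultures of the same treatment, weighted by the estimated RNA shares. After irradiation IRF7 averaged 9.74 CPM where the weighted sum was 6.65 CPM, a ratio of 1.47, and the 3 libraries gave 1.497, 1.52 and 1.38. IFIH1 and IRF9 gave 1.202 to 1.38 and 1.22 to 1.37 over the 3 libraries, TLR3 0.756 to 0.849, and STAT2 a mean of 1.08. Without irradiation IRF7 gave 0.643, 1.09 and 0.691, IFIH1 0.805 to 0.991 and TLR3 1.08 to 1.48. In those NIR libraries IRF9 gave 0.691 to 0.968 and STAT2 0.805 to 0.911, below the weighted sum in each. There IRF1 gave 1.06 to 1.18, STING1 0.844 to 0.923 and MAVS 0.9205 to 1.01. IRF1 gave 0.859 to 0.911 after irradiation, STING1 0.821 to 0.949 and MAVS 0.972 to 0.998. IRF7, IFIH1, IRF9 and STAT2 therefore lay above the weighted sum in every IR mixed library, and TLR3, IRF1, STING1, MAVS and CGAS below it. MCF10A supplied at most 2.07% of any of these sums, that of STING1, apart from CGAS. For CGAS the 0.183 CPM measured in IR mixed cultures stood beside a weighted sum of 0.406 CPM, 83.8% of it from MCF10A. The spread of the monocultures and of the share is not part of these ratios, so they carry no test. How many of all genes lay above or below their sums was not computed.

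**Figure D3:**
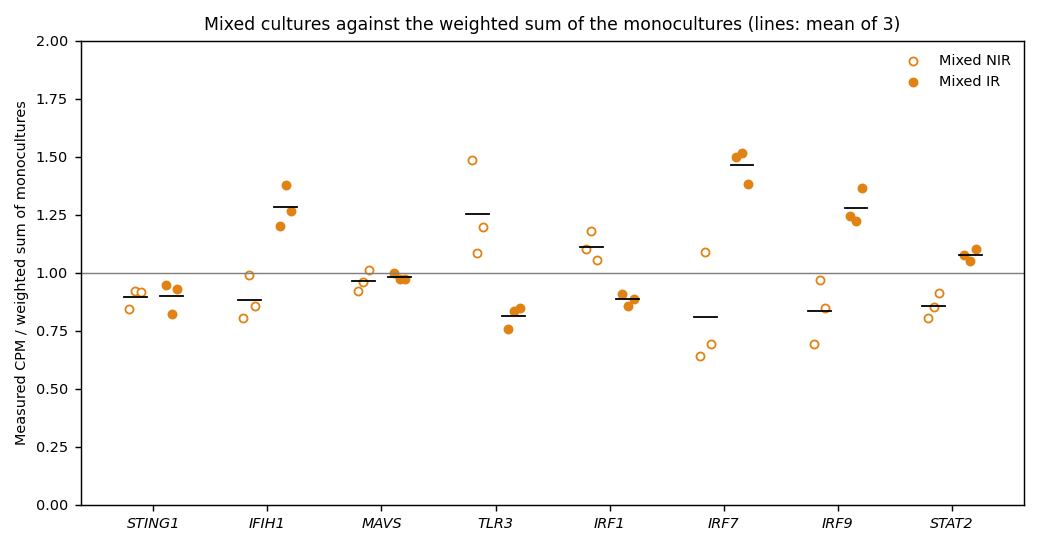
Ratio of the measured CPM in each mixed library to the weighted sum of the monocultures (vertical axis, linear from 0; the grey line is a ratio of 1), for 8 transcripts; open points are NIR and filled points IR libraries, and black lines are means of 3. In IR libraries IRF7 lies at 1.38 to 1.52 and TLR3 at 0.756 to 0.849.

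Other genes of the pathway were described from lists that leave the 9 members out. Genes are named in a culture where they were among the largest changes of their list. A gene may thus have moved alike in a culture not named. Their counts stand beside the shares of all tested genes, which were 26.2% upward and 29.2% downward in MCF10A, 25.3% and 27.2% in HCT116, and 24.0% and 25.4% in mixed cultures. Of the sensors and signalling partners, 7 of 25 tested rose and 9 fell in MCF10A, 14 of 22 rose and 3 fell in HCT116, and 11 of 22 rose and 3 fell in mixed cultures. The list medians were -0.04, 0.32 and 0.21 on the log2 scale, and the MCF10A counts were near the shares of all genes. TICAM1, the adaptor that TLR3 uses, rose from 15.5 ± 0.529 to 26.2 ± 0.665 CPM in MCF10A (log2 0.73, adjusted p = 6.4e-08) and from 16.1 ± 1.35 to 27.1 ± 3.11 CPM in mixed cultures (log2 0.73, adjusted p = 4.3e-06). Its mean in HCT116 went from 15.1 to 27.4 CPM. RIGI, a cytosolic RNA sensor that also signals through MAVS, rose from 5.84 ± 1.16 to 12.3 ± 0.892 CPM in HCT116 (log2 1.07, adjusted p = 2.2e-06) and from 3.42 ± 0.949 to 14.9 ± 0.351 CPM in mixed cultures (log2 2.08, adjusted p = 9e-10). IKBKE, a kinase that activates IRFs, rose by 1.10 in HCT116 and 1.31 in mixed cultures on the log2 scale (adjusted p = 4.1e-06 and 2.6e-07). MYD88, the adaptor of most Toll-like receptors, rose in HCT116 from 16.0 ± 0.834 to 33.3 ± 1.20 CPM (log2 1.07, adjusted p = 1.3e-09). In MCF10A TLR2, which senses lipoproteins, rose from 3.44 ± 0.345 to 7.97 ± 0.673 CPM (log2 1.19, adjusted p = 5e-07), and ZCCHC3, a cofactor of CGAS and of RNA sensors, fell from 35.6 ± 0.806 to 23.4 ± 1.30 CPM (log2 -0.62, adjusted p = 1.1e-07).

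Interferon genes themselves were low, and most were near the limit of detection. IFNE was the highest of those listed. It averaged 0.515 CPM (51 summed counts) in NIR MCF10A and 2.56 CPM (227 summed counts) in IR MCF10A. In HCT116 it averaged 0.729 CPM (NIR) and 0.802 CPM (IR), and in mixed cultures 0.759 and 0.862 CPM. IFNB1 had 0 counts over the 3 NIR libraries of each culture, and 4 counts in IR MCF10A, 6 in IR HCT116 and 2 in IR mixed cultures. IFNL1 averaged 0.232 CPM in NIR HCT116, 0.304 CPM in IR HCT116, 0.0185 CPM in NIR mixed cultures and 0.418 CPM in IR mixed cultures. Of 10 interferon, receptor and kinase genes tested, 5 rose and 0 fell in MCF10A, 1 rose and 4 fell in HCT116, and 0 rose and 3 fell in mixed cultures. Of all genes, 26.2%, 25.3% and 24.0% rose and 29.2%, 27.2% and 25.4% fell in these cultures, and the 3 of 10 that fell in mixed cultures were near the share there. JAK1, a kinase of the interferon receptors, rose from 137 ± 5.46 to 195 ± 3.67 CPM in MCF10A (log2 0.49, adjusted p = 2.4e-10) and fell from 138.5 ± 5.76 to 113 ± 1.75 CPM in mixed cultures (log2 -0.32, adjusted p = 7.5e-05). Its mean in HCT116 alone went from 140.4 to 111.5 CPM, close to the mixed values. The receptor genes IFNAR1 and IFNGR1 rose in MCF10A by 0.16 each (adjusted p = 0.0058 and 0.0076). TYK2, the kinase of the type I and type III receptors, fell in HCT116 from 57.6 ± 2.94 to 39.3 ± 3.63 CPM (log2 -0.54, adjusted p = 4.4e-06) and in mixed cultures by 0.46 (log2 -0.46, adjusted p = 8.8e-06). The receptor gene IFNLR1 fell in HCT116 from 14.8 ± 0.664 to 8.37 ± 0.394 CPM (log2 -0.81, adjusted p = 5.8e-06), and IFNGR2 fell in HCT116 (log2 -0.41, adjusted p = 0.0044) and mixed cultures (log2 -0.25, adjusted p = 0.038).

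Among 12 other IRF and STAT genes, 5 of 10 tested rose and 2 fell in MCF10A, 3 of 9 rose and 2 fell in HCT116, and 3 of 10 rose and 1 fell in mixed cultures. Of all genes 26.2%, 25.3% and 24.0% rose and 29.2%, 27.2% and 25.4% fell in these cultures. The HCT116 counts and the mixed count of risen genes were near these shares. STAT6, which acts below interleukin 4, rose in HCT116 (log2 0.98, adjusted p = 3.7e-10) and mixed cultures (log2 0.82, adjusted p = 2e-08), as did STAT3, which acts below interleukin 6 (log2 0.56 and 0.57, adjusted p = 1.7e-08 and 1.7e-07). In MCF10A STAT4, which acts below interleukin 12, rose from 8.65 ± 1.76 to 15.2 ± 1.16 CPM (log2 0.79, adjusted p = 9.8e-06). STAT5B fell in MCF10A (log2 -0.41, adjusted p = 1.1e-06) and HCT116 (log2 -0.84, adjusted p = 1.4e-06).

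Among genes that remove nucleic acids or restrain the pathway, 1 was higher and 6 were lower of 18 tested in MCF10A, 4 and 11 of 19 in HCT116, and 5 and 10 of 19 in mixed cultures. Of all genes 29.2%, 27.2% and 25.4% fell in these cultures, and the MCF10A count of lower genes was near that share. ENPP1, which degrades the cyclic dinucleotide made by CGAS, fell in HCT116 from 32.2 ± 3.87 to 8.91 ± 0.157 CPM (log2 -1.85, adjusted p = 1.6e-12) and in mixed cultures from 34.5 ± 3.61 to 16.0 ± 1.56 CPM (log2 -1.14, adjusted p = 4e-09). SOCS3, an inhibitor of JAK and STAT signalling, fell in HCT116 from 18.6 ± 1.47 to 6.44 ± 0.598 CPM (log2 -1.52, adjusted p = 5.8e-10) and in mixed cultures (log2 -1.04, adjusted p = 1.6e-06). Of the ribonuclease H2 subunit genes, RNASEH2B fell in MCF10A from 51.5 ± 2.23 to 30.1 ± 3.03 CPM (log2 -0.80, adjusted p = 6.2e-10), and RNASEH2C fell in HCT116 (log2 -0.86, adjusted p = 6.1e-06) and mixed cultures (log2 -0.73, adjusted p = 5.4e-05). The RNASEH2B mean also went from 39.9 to 29.6 CPM in HCT116 and from 38.95 to 27.2 CPM in mixed cultures. The RNASEH2C mean went from 10.7 to 9.47 CPM in MCF10A. In MCF10A BANF1, which shields DNA from CGAS, fell from 131 ± 10.7 to 81.5 ± 5.35 CPM (log2 -0.70, adjusted p = 5.5e-11), and NLRC5, a regulator of MHC class I genes, by 0.71 (log2 -0.71, adjusted p = 9.8e-05). The BANF1 mean went alike from 120.6 to 80.3 CPM in HCT116 and from 124.8 to 82.3 CPM in mixed cultures. The NLRC5 mean went the other way there, from 9.90 to 12.6 CPM in HCT116 and from 8.94 to 12.9 CPM in mixed cultures. TREX1, the main cytosolic DNA exonuclease, was listed at 0 in all 18 libraries and is left without a value.

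Of the interferon target genes, 28 of 35 tested rose and 1 fell in MCF10A, 23 of 34 rose and 2 fell in HCT116, and 35 of 38 rose and 1 fell in mixed cultures, where 26.2%, 25.3% and 24.0% of all genes rose. Their medians were 0.72, 0.75 and 1.39 on the log2 scale. In MCF10A IFIT1 rose from 1.58 ± 0.674 to 6.14 ± 1.81 CPM (log2 1.93, adjusted p = 5.3e-07), ISG15, a ubiquitin-like modifier, from 1.46 ± 0.242 to 5.26 ± 0.423 CPM (log2 1.84, adjusted p = 6.6e-08), and IFI6 by 1.53 (adjusted p = 7e-07). In HCT116 IFIT2 rose from 10.5 ± 1.64 to 34.8 ± 4.29 CPM (log2 1.73, adjusted p = 2.4e-11) and IFIT3 from 5.74 ± 0.651 to 17.7 ± 1.31 CPM (log2 1.63, adjusted p = 3.1e-10). TRIM22, an antiviral ubiquitin ligase, rose in HCT116 (log2 2.74, adjusted p = 8.7e-11) and mixed cultures (log2 3.26, adjusted p = 1.5e-11). In mixed cultures IFI44L rose from 0.560 ± 0.259 to 10.4 ± 0.646 CPM (log2 4.23, adjusted p = 3.8e-12), while it averaged 0.292 and 0.469 CPM in NIR and IR HCT116 and 7.24 and 18.7 CPM in NIR and IR MCF10A. OAS1, an antiviral enzyme, rose in mixed cultures from 1.02 ± 0.0379 to 9.20 ± 0.695 CPM (log2 3.14, adjusted p = 1.5e-11). In NIR and IR HCT116 OAS1 averaged 3.32 and 9.75 CPM. Its mean in mixed cultures was thus lower than in HCT116 without irradiation and close to it after irradiation. In NIR and IR MCF10A it averaged 2.31 and 4.48 CPM. The response of 10 of 38 tested targets was larger in mixed than in HCT116 cultures and that of 0 was smaller, where 0.681% of all genes had a larger and 0.149% a smaller response.

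The genes whose levels most resembled each member over the 18 libraries were ranked by Pearson's r of log2(CPM + 1) among genes averaging at least 5 CPM. These correlations are descriptions, since the libraries share their lines and treatments. For CGAS they were CBR1 (r = 0.9994), ZNF718 and GNG11 (0.9983 each), all near 0 outside MCF10A. STING1 was followed by RAC2 (0.989), NRG1 (0.986) and SERINC3 (0.985). IFIH1 was followed by RELCH (0.945), the helicase gene and interferon target DDX60 (0.930) and EVA1C (0.927), MAVS by SIDT2 (0.993), ARHGAP27 (0.989) and SPEG (0.982), and TLR3 by WDR77 (0.986), NDUFV3 and FAM98A (0.983 each). IRF1 was followed by ZHX2 (0.934), TRAF3 (0.931) and the p53 target DRAM1 (0.928), and IRF7 by DIP2A (0.952), MAN1B1 (0.948) and TTC21A (0.945). IRF9 was followed by OPLAH (0.947), NECAB3 (0.932) and KLC1-AS1 (0.930), and STAT2 by GAB2 (0.974), CDH1 (0.974) and DISP2 (0.973). Within the 9 members, the closest pairs were MAVS with STAT2 (r = 0.947), IRF9 with STAT2 (0.924) and CGAS with STING1 (0.881), and the most opposed were CGAS with IRF7 (-0.82).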

How the data were processed

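Poly(A) RNA of 18 cultures was sequenced as stranded 150 bp read pairs. The authors deposited raw counts per gene symbol, 1 table per library, with no normalization. The submitters' processing notes name fastp, STAR, featureCounts and GRCh38, with no version or role, and the annotation, the strand setting and whether mates were counted singly are not given in the sources used here. Of the values from 1 to 10, 68.3% were even, so fits and intervals on halved counts were added after seeing the data.

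Each of 9 comparisons was fitted over the whole table with edgeR 4.0.16 in R 4.3.3 (TMM, filterByExpr, quasi-likelihood test, 2-sided, limma 3.58.1), adjusted by Benjamini-Hochberg over all genes tested. Every adjusted p in the text is from this fit unless another tool is named, and the threshold was 0.05. SE came from the fold change and F statistic. Only libraries of the compared groups entered, and differences of responses were interaction terms. The p-values measure the spread between replicates that the labels call biological. The 9 members and the lists were chosen with earlier results of these data known. The scripts were tested on simulated counts.

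Named genes were all members, the 3 most correlated genes of each, and, per list and irradiation comparison, up to 3 genes with the largest absolute log2 fold change among those past the threshold with at least 5 CPM in the higher group. CDKN1A, MDM2, the named cell markers, IFNB1, IFNE, IFNL1 and TREX1 were added after their values were seen. Some genes the rule named are not reported here. The MCF10A share of RNA used 144 MCF10A-specific and 153 HCT116-specific genes (NIR) and 143 and 139 (IR), each at least 20 CPM in 1 line with no library of the other line at 1 CPM or more. Alternatives were DESeq2 1.42.0, other scalings, no filter, all libraries in 1 fit, fewer features, a replicate block and leaving out each library.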

Additional observations from a re-analysis of the deposited data

Results flagged for a closer look

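The irradiation responses of HCT116 and MCF10A differed, by an interaction term in edgeR, for 5 of the 9 transcripts. Of all 18179 genes tested 37.3% differed in the same way, 15.4% toward HCT116 and 21.9% toward MCF10A. On the log2 scale, as HCT116 minus MCF10A, the difference was 2.43 for TLR3, 0.54 for IFIH1, -1.75 for IRF7, -0.80 for IRF9 and -0.80 for STAT2. Each of the 5 kept its direction in all 20 alternatives, in which TLR3, IFIH1, IRF7 and STAT2 also stayed past the threshold and IRF9 did in 10. Line and medium cannot be told apart in these values. The response of TLR3 in mixed cultures minus that in HCT116 was -0.66 on the same scale, past the threshold in 6 of 20 alternatives. Co-culture and medium cannot be told apart in that value.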

How the results depend on the processing

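Counts of members past the threshold stayed within 1.5 times of the reported count except in 2 comparisons. For IR mixed against IR HCT116 cultures, leaving out single libraries gave 1 to 3 members. For the response of mixed minus HCT116 cultures, where 1 was reported, 3 passed with DESeq2 and with no filter, 0 with upper-quartile factors, library totals, the replicate block and halved counts, and 0 to 3 with single libraries left out. Replicate numbers did not pair libraries: residual correlations of same-numbered libraries averaged -0.0207 to 0.0568 over pairs of groups. The replicate block changed no other call of a member than that of TLR3 in the mixed response (-0.66, adjusted p = 0.073). It changed the counts as given above.

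Signs changed only for values that missed the threshold. CGAS in MCF10A became 0.0033 with upper-quartile factors. Between the NIR lines IFIH1 became 0.0036 with DESeq2, 0.20 with upper-quartile factors and library totals, and 0.0199 with halved counts, and IRF1 became 0.0479 and 0.0438 under the same scalings. The difference of responses between the lines became 0.0462, 0.0456 and 0.0444 for CGAS and 0.0261, 0.0259 and 0.0232 for STING1 with no filter, without mitochondrial and the 10 most abundant genes, and with all 18 libraries. In the mixed response STING1 became 0.0127 with library totals and 0.0038 with all 18 libraries, and MAVS -0.0168 with DESeq2, -0.0186 without the abundant genes and -0.0142 with halved counts. With single libraries left out, IRF9 in HCT116 ranged from -0.17 to 0.0867, IRF7 in mixed cultures from -0.24 to 0.18, and IFIH1 between NIR lines from -0.0814 to 0.0488. The same ranges for the responses of the lines were -0.97 to 3.93 (CGAS), -0.18 to 0.0561 (STING1) and -0.15 to 0.0158 (MAVS), and for the mixed response -0.10 to 0.0655 (STING1) and -0.0651 to 0.0127 (MAVS).

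Upper-quartile factors and library totals shifted the all-gene median of HCT116 against MCF10A from 0.05 to 0.25 without irradiation, and from 0.04 to 0.22 and 0.27 after it, so IFIH1 and IRF1 signs there are relative to that shift.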
